A study of Mus musculus with 19 samples.

Results

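The peaks of open chromatin in and around the genes of the nuclear factor I (NFI) family of transcription factors, Nfia, Nfib, Nfic and Nfix, are described here over 6 groups of mouse neural cells. A peak was counted for a gene when its centre lay in the gene body or within 50 kb of either end, with gene positions taken from the RefSeq gene table of GRCm38.p6. This gave 150 of the 90154 peaks measured. Nfia (chr4:97578066-98118876, 540.8 kb) held 62 of them, with 58 in the gene body. Nfib (chr4:82290173-82506751, 216.6 kb) held 28, with 20 in the body. Nfic (chr10:81396191-81431919, 35.7 kb) held 20, with 7 in the body, and Nfix (chr8:84704712-84801238, 96.5 kb) held 40, with 22 in the body. Of the 150 peaks, 149 were 500 bp long, and all 150 passed the filter on low values. Peaks were denser at the short loci, with 0.97 per 10 kb of window at Nfia and 0.88 at Nfib against 1.47 at Nfic and 2.04 at Nfix. At Nfic and Nfix, 23 peaks also lay in another protein-coding gene or within 1 kb of its end. Of these, 10 were in the Nfic window, at Hmg20b, Mfsd12, 4930404N11Rik, Fzr1, Dohh, Gm48552, Smim24 and Celf5, and 13 were in the Nfix window, at Ier2, Nacc1, Trmt1, Dand5 and Calr among others. Which gene such a peak serves was not tested.

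The values come from ATAC-seq, which reads out chromatin accessibility: a transposase cuts and tags open DNA, and a region's read count rises with its openness. Each value is a peak's read count divided by a size factor of its library, and is called normalised reads here. Neural stem and progenitor cells were isolated from the ventricular zone of wild type C57BL/6J embryos at embryonic day 14 and expanded as floating neurospheres (NSPs) with EGF. NSPs (3 libraries, titled as untreated astrocytes at 0 h but given the cell type NSP) were compared with cells differentiated towards astrocytes in serum for 24 h (3 libraries), 72 h (3) or 1 week (4), and with cells that received the inflammatory cytokine TNF at 50 ng/ml for 24 h (3) or 72 h (3). There was no TNF group at 1 week, and the labels name no transgene or deletion. Cells were isolated from single brains and the model is a culture grown from embryonic progenitors and measured in bulk, so a smaller share of cells with an open region and less opening per cell cannot be told apart. The study's methods speak in general of independent biological experiments, but the labels do not tie this to the libraries, so that p-values measure only the spread between them, which may be technical.

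NFI proteins bind DNA as dimers of any of the 4 family members, through a conserved amino-terminal domain, and can both activate and repress transcription. Nfia and Nfib are known for their induction at the onset of gliogenesis in the embryonic nervous system, where Nfia acts downstream of Notch signalling and together with Sox9, and where it is linked to demethylation of the Gfap promoter. Nfix is known for its part in the quiescence and timely differentiation of neural stem cells, and Nfic for tooth root formation. The ideal binding site is the palindrome made of the motif TTGGC and its reverse complement GCCAA, separated by a short spacer.

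The RefSeq promoter table (GRCm38.p6) held transcription starts for 3 of the 4 genes, with 1 start for Nfia, 1 for Nfic and 4 for Nfix. Nfib had no entry. At all 3 genes the gene body reached upstream of the outermost start held (97581943 at Nfia, 81427173 at Nfic and 84780082 at Nfix). Starts further out may therefore be missing, and the start peaks below need not be the main promoters. The 250 bases before a start are printed below, 5′ to 3′ on the gene's strand, for the starts of Nfia and Nfix that lay inside a measured peak, whose values follow, and for a further Nfix start because its window holds the NFI motif. Capitals mark the motif.
Nfia, plus strand, chr4:97581693-97581942: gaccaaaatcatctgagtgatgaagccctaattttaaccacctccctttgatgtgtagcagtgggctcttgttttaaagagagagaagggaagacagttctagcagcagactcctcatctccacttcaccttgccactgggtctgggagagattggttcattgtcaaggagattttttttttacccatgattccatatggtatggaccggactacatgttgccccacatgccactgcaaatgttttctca
Nfix, minus strand, chr8:84780083-84780332: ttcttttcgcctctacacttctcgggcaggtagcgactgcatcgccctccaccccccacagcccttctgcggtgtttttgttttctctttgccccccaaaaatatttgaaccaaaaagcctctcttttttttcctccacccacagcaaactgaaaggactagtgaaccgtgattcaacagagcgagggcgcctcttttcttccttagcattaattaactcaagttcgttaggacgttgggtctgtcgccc
Nfix, minus strand, chr8:84775829-84776078: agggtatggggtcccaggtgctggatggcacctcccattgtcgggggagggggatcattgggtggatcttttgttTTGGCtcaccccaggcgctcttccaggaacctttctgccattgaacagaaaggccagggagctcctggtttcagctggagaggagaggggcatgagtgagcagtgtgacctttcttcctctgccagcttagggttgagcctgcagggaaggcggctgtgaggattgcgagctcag
The motif, searched as TTGGC or GCCAA so as to cover both strands, was found in 2 of the 6 windows of the family. Both were Nfix windows, with the motif 175 bases and 5 bases before the start. For comparison, 41.5% of all 32851 promoter windows of the same length held it at least once. The full palindrome with a spacer of 5 bases was in 0 of the 6 windows and in 0.037% of all. These matches describe the letters only.

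The libraries differed in depth. NSP libraries had 28636739 to 39349111 reads in peaks, the untreated libraries of later times 9640256 to 25165008 and the TNF libraries 11337790 to 18780028. Peaks of the NFI loci took 0.222% to 0.2371% of these reads in NSPs, 0.2035% to 0.2041% at 24 h, 0.2129% to 0.2186% at 72 h and 0.2151% to 0.2225% at 1 week. With TNF they took 0.1917% to 0.1927% at 24 h and 0.2058% to 0.2061% at 72 h, below the untreated libraries of the same time. NSP replicate 1 stood apart from the other NSP libraries at the NFI loci. Its log2 values differed from their mean with an SD of 0.666 over the 150 peaks, against 0.271 to 0.428 for the other 18 libraries about the rest of their groups, and 23 of its 150 values were more than 1 log2 unit away. Results against NSPs are therefore also given without it. The names of the 72 h and 1 week libraries carry a tag that those of NSP and 24 h libraries lack. The comparisons of 72 h and 1 week with NSPs cannot be told apart from this tag, whereas those of 24 h with NSPs, of TNF at each time and of 1 week with 72 h lie within it. Of 212 peaks that held at most 3 reads in all 10 tagged libraries and at least 20 reads in all 9 untagged ones, 0 were at NFI loci. With so few such peaks among 90154, 0 is likely for any 150 peaks. The count sees only near-total loss, so it does not tell whether the tag goes with smaller changes. Among cell type markers, read through peaks within 1 kb of a gene end, 4 of 5 progenitor genes had a peak and all 4 were lower at 24 h and 72 h, or 3 and 1 of them with total-read scaling. At 1 week against NSPs, with the deposited scaling, only 1 of the 4 was lower (Mki67). From 72 h to 1 week all 4 were higher with that scaling. Of 7 astrocyte genes, 6 had a peak (not Aqp4), of which 1 was called higher and 3 lower at 24 h and 3 higher and 2 lower at 1 week. For other cell types, 4 of 5 neuronal, 2 of 5 oligodendrocyte, 1 of 5 fibroblast and 0 of 5 microglial genes had such a peak. At 1 week against NSPs 2 of the 4 neuronal genes were lower, and neither the oligodendrocyte genes nor Col1a1 were called. Neuronal marker peaks had mean log2 levels from 7.58 to 7.91 in NSPs and from 6.73 to 7.54 at 1 week, and the part of other cells in the NFI results was not tested.

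Differentiation changed a large part of the NFI peaks in both directions, and the decreases outnumbered the increases at 24 h and 72 h with the deposited scaling. When libraries were scaled to total reads, they did not outnumber them in the untreated groups of these times. A peak was called when its Benjamini-Hochberg adjusted p over 88919 tested peaks was under 0.05 in limma-trend, on log2(value + 1), fitted to all 19 libraries. At 24 h, 29 of the 150 peaks were called higher than in NSPs (24.2% of all tested peaks were) and 55 lower (23% of all). At 24 h with TNF, 26 were higher (26.5% of all) and 64 lower (25.5% of all). At 72 h the counts were 36 higher (28.3% of all) and 55 lower (30.9% of all), and at 72 h with TNF 31 higher (29.1% of all) and 53 lower (30.9% of all). At 1 week they were 47 higher (33.7% of all) and 50 lower (33.6% of all). The share called lower at 24 h was thus 36.7% of the NFI peaks, above the 23% of all peaks, while at 1 week the counts in both directions were near the shares of all peaks. For 24 h, 72 h and 1 week in turn, the NFI peaks had median log2 changes of -0.26, -0.20 and -0.07, where all tested peaks had -0.07, -0.06 and 0.01. These 5 comparisons share the 3 NSP libraries.

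The balance of the directions depended on how libraries were scaled. When each library was scaled to its total reads in peaks, the median log2 change of all peaks was 0.11 at 24 h in place of -0.07, and 0.21 at 72 h in place of -0.06. The NFI counts at 24 h became 37 higher (29.4% of all tested peaks) and 33 lower (13.9% of all). At 24 h with TNF they were 29 (31.6% of all) and 41 (15.7% of all). At 72 h they were 45 (36.7% of all) and 37 (20.8% of all), and at 72 h with TNF 37 (35.1% of all) and 40 (23.5% of all). At 1 week they were 43 (31.1% of all) and 55 (35.9% of all). The lower counts at 24 h and 72 h, with and without TNF, thus still lay above the shares of all peaks. Without NSP replicate 1, 31 peaks were higher and 51 lower at 24 h, 26 and 59 at 24 h with TNF, 36 and 59 at 72 h, 30 and 50 at 72 h with TNF, and 48 and 54 at 1 week. None of the calls made with all libraries turned in sign without it. Of the 55 peaks lower at 24 h, 31 were called under every alternative and without each library in turn, and the same held for 24 of the 29 that were higher. At 1 week, 38 of the 47 higher and 41 of the 50 lower peaks were called throughout.

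**Figure D1:**
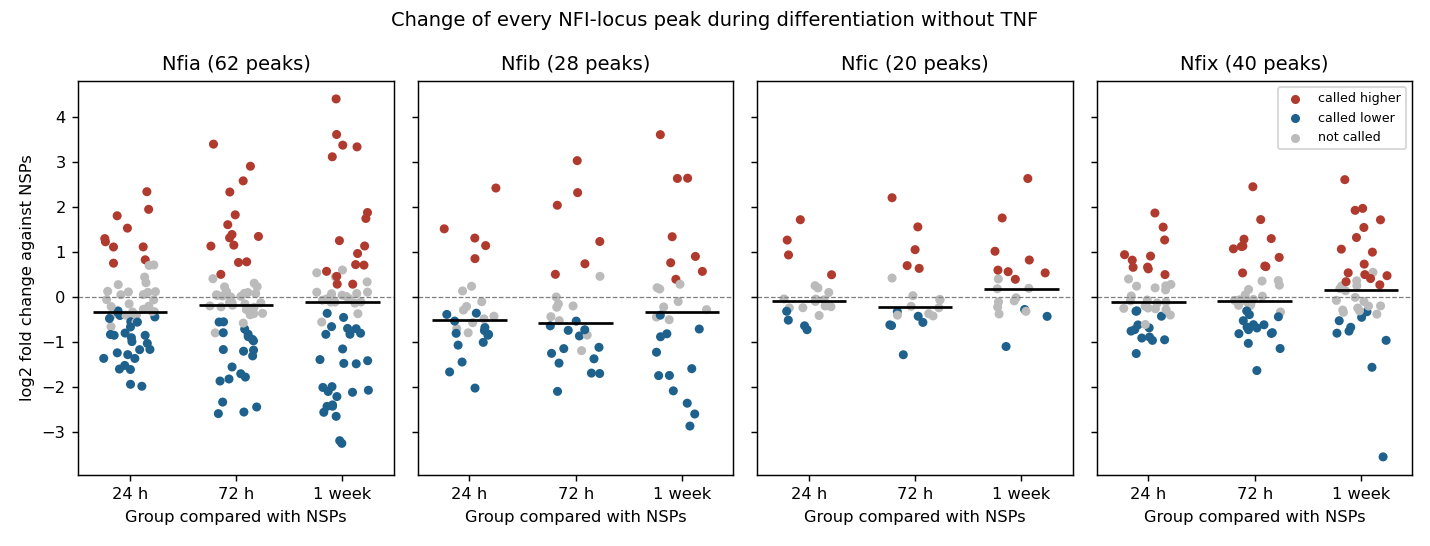
log2 fold change of all 150 NFI-locus peaks at 24 h, 72 h and 1 week without TNF against NSPs, 1 panel a gene, with red for peaks called higher, blue for peaks called lower, grey for peaks not called and a black bar at the median. At Nfia and Nfib the largest increases and decreases both grew from 24 h to 1 week, and the median at Nfib stayed under that of the other genes (-0.51, -0.58 and -0.34).

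The counts of the 4 loci are given in turn, and differences between loci were not tested. Of all tested peaks, 24.2% were higher and 23% lower at 24 h, 28.3% and 30.9% at 72 h, and 33.7% and 33.6% at 1 week. Nfic and Nfix held only 20 and 40 peaks. Nfia had 10 peaks higher and 26 lower at 24 h and 16 higher and 26 lower at 1 week. Nfib had 5 higher and 13 lower at 24 h and 8 higher and 12 lower at 1 week. Nfix had 10 higher and 12 lower at 24 h, and 15 higher and 9 lower at 1 week. Nfic had 4 in each direction at 24 h, and 8 higher and 3 lower at 1 week. At 1 week the larger direction at each gene was the same under total-read scaling, loess normalisation, edgeR and DESeq2. At 24 h the Nfix split turned to 13 higher and 8 lower with total-read scaling, to 12 and 10 with loess normalisation and to 11 and 10 with edgeR. At 72 h total-read scaling turned the splits of Nfia (14 higher and 21 lower), Nfic (5 and 6) and Nfix (11 and 15) to 17 and 16, 6 and 2, and 15 and 9, and loess normalisation turned those of Nfic and Nfix to 6 and 3, and 14 and 11. Followed through time, 24 of the 150 peaks (16%) were called higher in all 3 untreated comparisons with NSPs, against 18.7% of all tested peaks. Of the 150, 29 (19.3%) were called lower in all 3, against 14.2% of all, 24 (16%) were called in none, against 18.4% of all, and 8 (5.33%) were called in both directions, against 2.8% of all.

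Averaged over its peaks, each locus moved little. At Nfia the mean log2(value + 1) per library was 6.97, 6.80 and 6.83 in NSPs, 6.63, 6.66 and 6.64 at 24 h, 6.67, 6.80 and 6.70 at 72 h and 6.58, 6.54, 6.67 and 6.72 at 1 week. At Nfib it was 7.10, 7.22 and 7.25 in NSPs, and it lay between 6.84 and 6.95 at 24 h, between 6.86 and 6.92 at 72 h and between 6.82 and 7.03 at 1 week. The NSP libraries were above all later libraries at Nfib, and above all but a 72 h library at Nfia. At Nfix the mean log2 level was 7.80, 7.83 and 7.70 in NSPs and 7.92, 7.96, 7.92 and 7.95 at 1 week, so that all 1 week libraries lay above all NSP libraries. At Nfic the 1 week libraries ranged from 7.89 to 8.09 and the NSP libraries from 7.46 to 7.81, with the lowest value in NSP replicate 1. With TNF the Nfix level was 7.63, 7.62 and 7.71 at 24 h, under the 7.78, 7.78 and 7.77 without. At 72 h it was 7.70, 7.70 and 7.76 with TNF, under the 7.81, 7.79 and 7.86 without. At Nfia, Nfib and Nfic the libraries with and without TNF overlapped at both times. The order of the loci by mean log2 level in NSPs was Nfix (7.78 ± 0.07, SD, n = 3), Nfic (7.69 ± 0.20), Nfib (7.19 ± 0.08) and Nfia (6.87 ± 0.09). Nfix and Nfic overlapped in this order. The NFI peaks together had a mean log2 level of 7.28 in NSPs, above the 6.54 over all tested peaks. Nfia lay closest to all tested peaks, with 6.63 at 1 week against 6.59 over all.

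**Figure D2:**
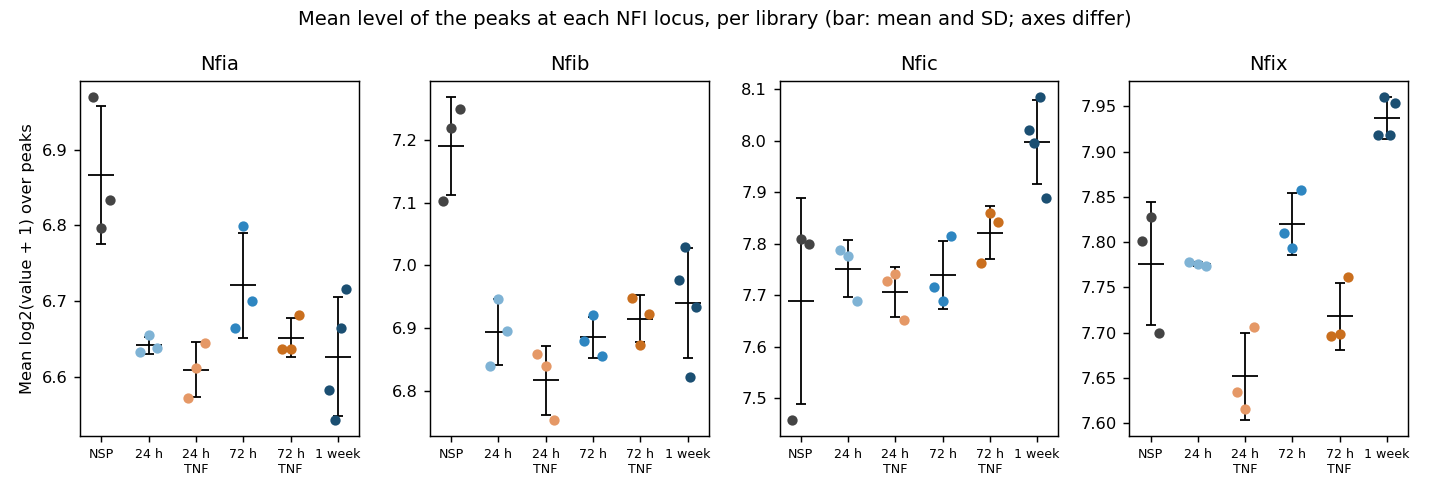
Mean log2(value + 1) over the peaks of each NFI locus in every library, with the group mean and SD as a black bar. NSP libraries are the highest group at Nfib (7.10 to 7.25), and 1 week libraries are the highest at Nfix (7.92 to 7.96) and Nfic (7.89 to 8.09).

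Nfia, the family member most tied to the start of gliogenesis, held the peak with the largest rise of all NFI peaks. This peak, at chr4:97939297-97939797 in the gene body, had 29.2, 25.0 and 27.2 normalised reads in NSPs and 115, 170 and 143 at 24 h. It had 266, 323 and 293 at 72 h and 584, 595, 660 and 522 at 1 week. The groups followed each other without overlap, and the group means spanned a ratio of 21.8. Against NSPs the log2 fold change was 2.34 ± 0.16 (SE) at 24 h (limma adjusted p 5.9e-13), 3.39 ± 0.16 at 72 h and 4.39 ± 0.15 at 1 week (limma adjusted p 1e-20). With TNF the values were 116, 152 and 131 at 24 h and 281, 266 and 240 at 72 h, overlapping the untreated libraries of the same time. A further Nfia peak rose late. At chr4:97609649-97610149 the values were 45.0, 42.9 and 43.9 in NSPs, 142, 160 and 173 at 72 h and 424, 443, 442 and 493 at 1 week. From 72 h to 1 week its log2 fold change was 1.51 ± 0.16 (limma adjusted p 8.4e-08), the smallest p of any rise at Nfia in that comparison.

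The clearest loss at Nfia was at chr4:97910790-97911290, also in the gene body and the strongest Nfia peak in NSPs. It had 1230, 1080 and 1260 normalised reads in NSPs, then 389, 425 and 360 at 24 h, 282, 376 and 330 at 72 h and 313, 255, 286 and 284 at 1 week. Most of the decrease was present by 24 h, with a log2 fold change of -1.60 ± 0.12 (SE, limma adjusted p 7.7e-12), and it was -2.06 ± 0.11 at 1 week (limma adjusted p 1.1e-15). Another strong peak, at chr4:97647546-97648046, fell from a mean of 923 in NSPs to 319 at 24 h, 170 at 72 h and 99.3 at 1 week. Of the 62 Nfia peaks, 15 were called lower in all 3 untreated comparisons and 8 higher in all 3. Of 41 neighbouring pairs of Nfia peaks called at 1 week, 24 had opposite directions, and the numbers were 11 of 19 at Nfib, 6 of 10 at Nfic and 9 of 23 at Nfix. The share of such pairs over all peaks was not computed, so these numbers are not shown to be particular to the NFI loci.

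**Figure D3:**
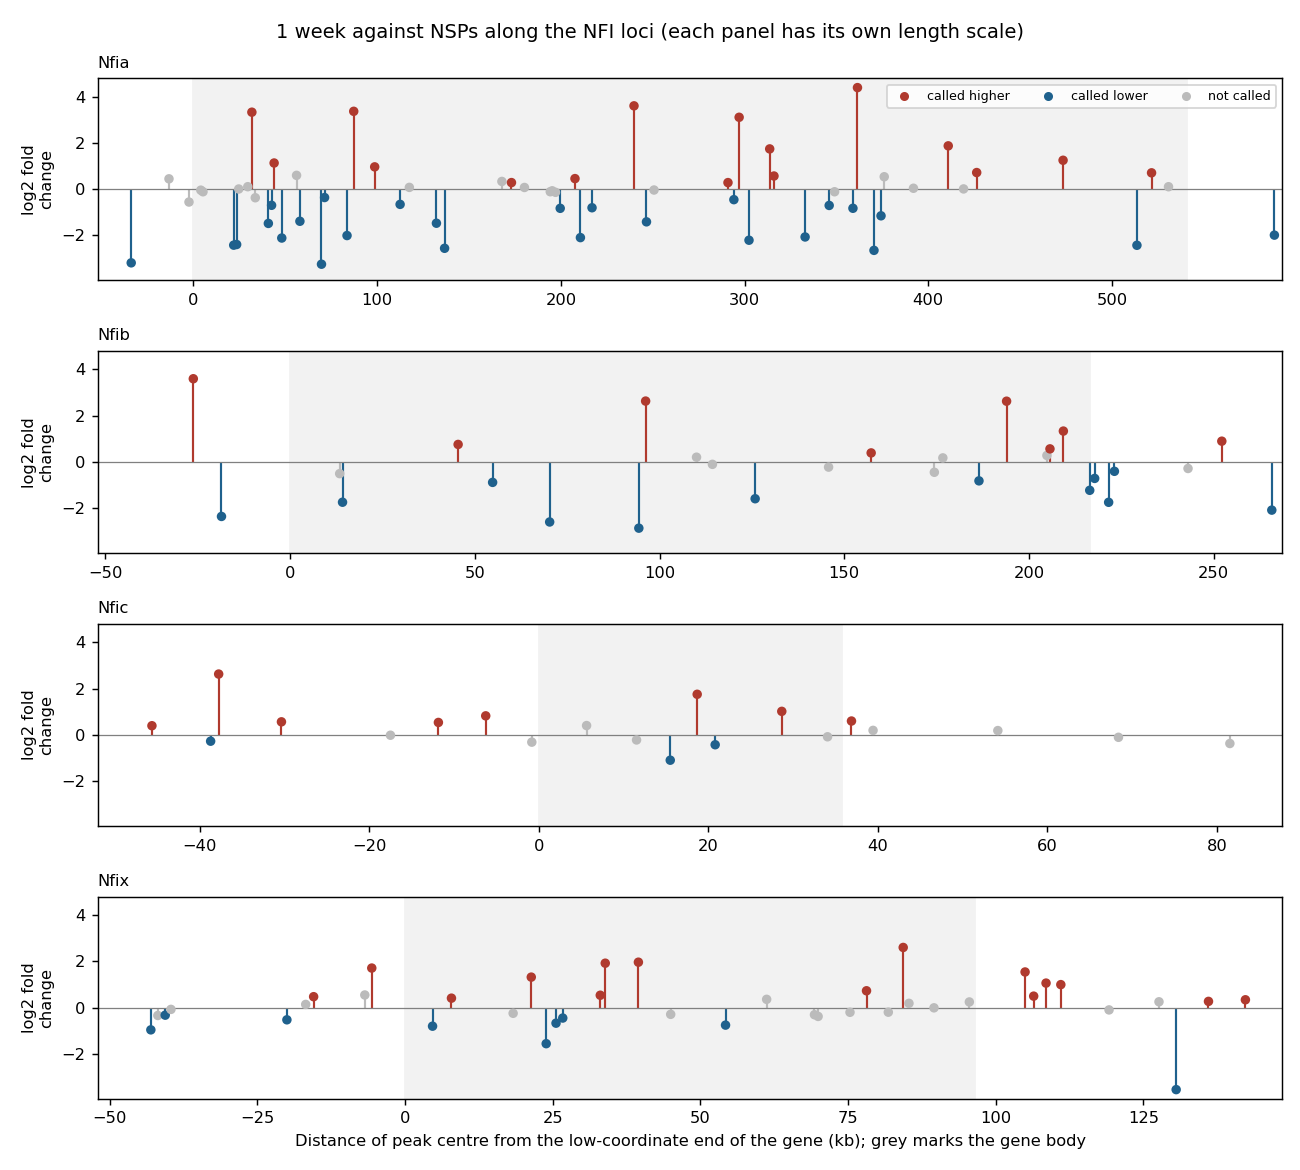
log2 fold change at 1 week against NSPs of every NFI-locus peak, by the distance in kb of its centre from the low-coordinate end of the gene, with the gene body in grey, red for peaks called higher, blue for peaks called lower and grey points for peaks not called. Peaks called higher and peaks called lower both occur along Nfia and Nfib, with the extremes at 4.39 and -3.24 for Nfia.

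The peak at the single Nfia start held, a start inside the gene body, did not follow these changes. Its centre, in chr4:97581863-97582363, lay 170 bases past the start whose upstream sequence is printed above. It had 75.4, 92.3 and 75.8 normalised reads in NSPs, 79.7, 66.4 and 87.4 at 24 h, 93.9, 89.7 and 101 at 72 h and 75.8, 79.5, 63.8 and 98.6 at 1 week. Every group overlapped with NSPs, and the peak was not called in any of the 8 comparisons by limma, where its lowest unadjusted p was 0.188. Its log2 fold change at 1 week was -0.04 ± 0.20 (SE, limma adjusted p 0.866). The strongest Nfia peak over all libraries, at chr4:98004193-98004693 in the gene body, had 914, 932 and 987 in NSPs, 839, 779 and 847 at 24 h, 907, 785 and 860 at 72 h and 1430, 1550, 1690 and 1570 at 1 week. Its libraries at 24 h and 72 h lay below all NSP libraries, though neither time was called against NSPs, and those at 1 week lay above. Its log2 fold change from 72 h to 1 week was 0.87 ± 0.10 (limma adjusted p 1.7e-07). That rise was 0.31 under the alternative that made it smallest, and it was called under all of them.

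Nfib, whose known role in glial development overlaps that of Nfia, lost accessibility at its gene end. The peak at chr4:82506346-82506846, centred 155 bases inside the high-coordinate end of the gene, had 1370, 773 and 787 normalised reads in NSPs and 471, 530 and 363 at 24 h. It had 223, 315 and 356 at 72 h and 414, 390, 372 and 439 at 1 week. Every later library lay under every NSP library. The log2 fold change was -1.06 ± 0.18 (SE) at 24 h (limma adjusted p 2.1e-05), -1.68 ± 0.18 at 72 h (limma adjusted p 6e-09) and -1.22 ± 0.17 at 1 week (limma adjusted p 3.4e-07). NSP replicate 1 was the highest library here, and without it these changes were -0.79, -1.41 and -0.95 and still called. The increase from 72 h to 1 week (log2 fold change 0.46 ± 0.17, limma adjusted p 0.033) was lost under total-read scaling, loess normalisation, either replicate block, edgeR and DESeq2, and without 72 h replicate 1, 1 week replicate 1 or 1 week replicate 4. The 4 peaks at and just outside this end, from 82506346 to 82513527, were all called lower in all 3 untreated comparisons. The strongest Nfib peak, at chr4:82513027-82513527 and in the non-coding gene Gm11266, belonged to them. It had 1040, 1020 and 969 in NSPs, 872, 810 and 649 at 24 h, 456, 413 and 534 at 72 h and 781, 753, 816 and 703 at 1 week, so it was lowest at 72 h. Its log2 fold change was -1.11 ± 0.13 (SE) at 72 h (limma adjusted p 1.5e-08) and -0.40 at 1 week (limma adjusted p 0.00401). From 72 h to 1 week it was 0.71 ± 0.12 (limma adjusted p 3.4e-05), a call that was lost under loess normalisation.

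Inside Nfib, the decrease with the smallest p was at chr4:82360193-82360693. Its values were 363, 359 and 386 in NSPs, 108, 142 and 163 at 24 h, 70.8, 84.9 and 106 at 72 h and 55.5, 69.4, 46.2 and 75.1 at 1 week. The log2 fold change went from -1.44 ± 0.20 (SE) at 24 h to -2.59 ± 0.19 at 1 week (limma adjusted p 6.4e-13). The opposite was seen outside the low-coordinate end, at chr4:82263753-82264253. There the values were 11.7, 17.0 and 17.9 in NSPs, 91.1, 79.7 and 87.4 at 24 h, 143, 140 and 113 at 72 h and 179, 197.2, 224.5 and 187.6 at 1 week. No library of a group overlapped with the group before it, and the log2 fold change reached 3.60 ± 0.20 at 1 week (limma adjusted p 2.1e-15). A pair of neighbouring peaks in the gene body moved apart in the same way. The peak at 82384324 went from a mean of 322 in NSPs to 45 at 1 week, and the peak at 82386163 went from 27.5 to 177.

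Nfic, known for its role in the tooth root, had the fewest peaks. The peak closest to the single Nfic start held, a start inside the gene body, was at chr10:81424613-81425113, centred 2310 bases past that start. It had 33.3, 71.6 and 59.1 normalised reads in NSPs and 62.6, 59.0 and 65.3 at 24 h, which overlapped. At 72 h it had 109, 96.9 and 122 and at 1 week 108, 108, 125 and 86.9, above every NSP library. The log2 fold change was 1.05 ± 0.24 (SE) at 72 h (limma adjusted p 0.00046) and 1.02 ± 0.23 at 1 week (limma adjusted p 0.00024), and 0.74 and 0.70 without NSP replicate 1. Elsewhere in the gene body, the peak at chr10:81414635-81415135 had 64.8, 80.1 and 85.7 in NSPs, 189, 177 and 188 at 24 h, 237, 205 and 240 at 72 h and 265, 270, 260 and 244 at 1 week. It rose by a log2 fold change of 1.26 ± 0.14 at 24 h and of 1.75 ± 0.14 at 1 week (limma adjusted p 2.5e-12). About 3 kb away, at chr10:81411458-81411958, the values were 92.9, 197 and 192 in NSPs, 75.9, 44.3 and 71.4 at 72 h and 77.6, 62.3, 81.4 and 63.3 at 1 week. This decrease had a log2 fold change of -1.28 ± 0.25 at 72 h (limma adjusted p 8.2e-05), and -1.63 without NSP replicate 1, the lowest of its group here.

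The strong peaks of the Nfic window lay at other genes. The highest, at chr10:81350319-81350819 and at Hmg20b, had 1770, 1520 and 1610 in NSPs, 1190, 1270 and 1460 at 72 h and 2060, 1980, 2360 and 2200 at 1 week. Its increase from 72 h to 1 week (log2 fold change 0.72 ± 0.10, limma adjusted p 2.9e-06) fell to 0.05 with loess normalisation and was then not called. The peak called lower at 24 h with the smallest p, at chr10:81378455-81378955 and at Fzr1, had 2086.6, 1197.5 and 1263.2 in NSPs and 992.8, 986.9 and 857.2 at 24 h. The 24 h libraries lay below all NSP libraries, with a log2 fold change of -0.64 ± 0.15 (SE, limma adjusted p 0.00073), or -0.38 without NSP replicate 1 (limma adjusted p 0.0058). Of the 8 Nfic-window peaks called higher at 1 week against NSPs, 3 were among the 10 peaks at no other coding gene.

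Nfix, known for its part in neural stem cell quiescence, had the densest set of peaks. Of the Nfix starts held, the outermost, whose upstream sequence is printed above, lies inside the gene body. The peak over this start, at chr8:84779785-84780285, was centred 47 bases past it. It had 439, 301 and 229 normalised reads in NSPs, 175, 204 and 176 at 24 h, 263, 286 and 268 at 72 h and 257, 256, 249 and 332 at 1 week. The 24 h libraries lay under all other untreated libraries, and NSP replicate 1 was the highest library. The log2 fold change was -0.75 ± 0.17 (SE) at 24 h (limma adjusted p 0.00059), or -0.51 without NSP replicate 1 (limma adjusted p 0.005), and -0.20 ± 0.17 at 72 h (limma adjusted p 0.329). Upstream of this start within the gene body, at chr8:84788790-84789290, accessibility rose early and stayed high. The values were 82.9, 74.4 and 64.5 in NSPs, 254, 311 and 250 at 24 h, 380, 411 and 426 at 72 h and 429, 472, 403 and 510 at 1 week. Its log2 fold change was 1.86 ± 0.15 at 24 h (limma adjusted p 2e-11) and 2.60 ± 0.14 at 1 week (limma adjusted p 4.7e-16).

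In the Nfix gene body, accessibility fell at chr8:84728357-84728857. The values were 519, 492 and 627 in NSPs, 364, 313 and 313 at 24 h, 275, 205 and 264 at 72 h and 202, 171, 205 and 162 at 1 week. The groups were ordered by time without overlap except that the 72 h and 1 week libraries touched at 205. The log2 fold change was -0.72 ± 0.15 (SE) at 24 h, -1.14 ± 0.15 at 72 h and -1.56 ± 0.14 at 1 week (limma adjusted p 4.4e-11). The peak called lower at 24 h with the smallest p, at chr8:84663865-84664365 outside the low-coordinate end, had 1070, 999 and 956 in NSPs, 534, 513 and 519 at 24 h, 582, 545 and 594 at 72 h and 704, 870, 781 and 874 at 1 week. It was lowest at 24 h and had partly returned by 1 week, where its log2 fold change against NSPs was -0.32 ± 0.11 (limma adjusted p 0.0109). The strongest peak of the Nfix window, at chr8:84846718-84847218, lay at Calr, the gene of the calcium-binding chaperone calreticulin. It had 2406.7, 1586.1 and 1665.2 in NSPs, 1420.6, 1455.8 and 1622.6 at 72 h and 2273.9, 2193.0, 2458.1 and 2475.9 at 1 week. All 1 week libraries lay above all 72 h libraries, with a log2 fold change of 0.65 ± 0.12 (limma adjusted p 9.3e-05) that was -0.04 and not called with loess normalisation. Its call as lower at 72 h against NSPs (-0.31 ± 0.13, limma adjusted p 0.037) was lost without NSP replicate 1 (-0.12), and also with total-read scaling, loess normalisation, the replicate block, edgeR or only the groups compared, and without 72 h replicate 1 or 2.

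**Figure D4:**
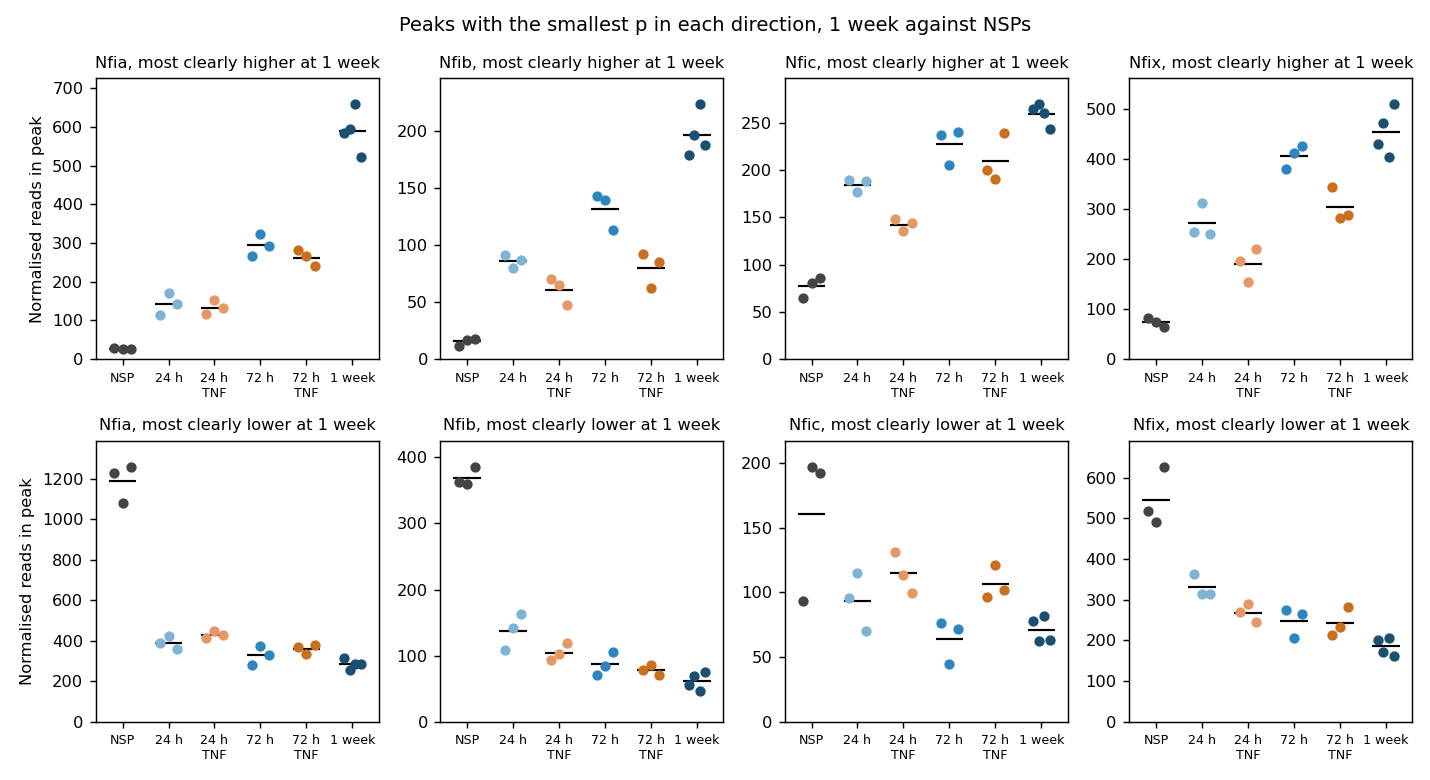
Normalised reads per library at the peak of each NFI gene with the smallest p among those called higher (top) and called lower (bottom) at 1 week against NSPs, with points for libraries and a black bar at the group mean. The Nfia peak in the top row goes from 25.0 to 29.2 in NSPs to 522 to 660 at 1 week, and at the bottom the Nfia peak goes from 1080 to 1260 to 255 to 313.

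Between 72 h and 1 week of untreated differentiation, 39 of the 150 NFI peaks were called higher (22.5% of all tested peaks) and 18 lower (16.2% of all). Nfix and Nfia supplied 13 and 12 of the increases, Nfib 9 and Nfic 5, while 10 of the decreases were at Nfia, 5 at Nfix, 3 at Nfib and 0 at Nfic. This was the comparison whose direction depended most on the scaling. With total-read scaling 14 were higher (8.96% of all tested peaks) and 44 lower (33.8% of all), as the median change of all peaks moved from 0.02 to -0.31. With loess normalisation there were 18 in each direction (13% and 11.6% of all). By edgeR 28 were higher (17.9% of all) and 29 lower (20% of all), and by DESeq2 35 (20.8% of all) and 24 (17.8% of all). The NFI counts thus moved with the shares of all peaks and lay near them. Of the 39 increases, 9 were called under all alternatives and without each library, against 10 of the 18 decreases. The clearest increase at Nfix was such a peak. At chr8:84712319-84712819 in the gene body the values were 661, 610 and 783 at 72 h and 1420, 1200, 1790 and 1400 at 1 week, with 1320, 986 and 970 in NSPs. Its log2 fold change from 72 h to 1 week was 1.08 ± 0.13 (SE, limma adjusted p 5.7e-07), and between 0.52 and 1.09 under the alternatives. The pattern of a decrease by 72 h against NSPs and an increase from 72 h to 1 week was called at 19 of the 150 peaks (12.7%), against 8.55% of all tested peaks, and both comparisons use the same 72 h libraries. Of these, 4 ended above NSPs at 1 week, 5 below them and 10 without a call.

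At Nfib, the increase with the smallest p in this interval was at chr4:82399937-82400437 in the gene body, with 310.1, 320.6 and 284.2 at 72 h and 554.6, 453.6, 488.5 and 550.1 at 1 week. The groups did not overlap, and the log2 fold change of 0.74 ± 0.11 (SE, limma adjusted p 8.6e-06) was called under all alternatives. With TNF at 72 h the same peak had 373.7, 379.9 and 416.5, a log2 fold change of 0.35 ± 0.12 (limma adjusted p 0.0482) whose call was lost without any 1 library of that comparison and with total-read scaling, loess normalisation, either replicate block and edgeR.

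Decreases in the same interval were seen at other peaks. At Nfib, the peak at chr4:82555618-82556118 in the flank had 77.1, 87.6 and 86.4 in NSPs, 52.8, 53.8 and 43.3 at 72 h and 26.5, 18.7, 15.4 and 17.2 at 1 week. Its log2 fold change from 72 h was -1.34 ± 0.24 (SE, limma adjusted p 7.4e-05). At Nfia, the peak at chr4:97785530-97786030 was highest at 72 h. It had 72.4, 59.8 and 81.7 in NSPs, 101, 98.8 and 89.9 at 24 h, 147, 227 and 195 at 72 h and 97.0, 93.5, 92.4 and 108 at 1 week. The 72 h libraries lay above all others, with log2 fold changes of 1.39 ± 0.19 against NSPs (limma adjusted p 4e-07) and of -0.93 ± 0.18 from 72 h to 1 week (limma adjusted p 0.00018).

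With TNF few NFI peaks were called, as were few of all tested peaks. The share of reads in NFI peaks and the mean level at Nfix were lower with it at both times, without overlap of libraries. These shifts were not tested. At 24 h, 5 of the 150 were called higher with TNF (7.06% of all tested peaks were) and 9 lower (3.53% of all). At 72 h, 5 were higher (6.24% of all) and 9 lower (5.55% of all). Over both times 24 peaks were called, 9 higher and 15 lower, of which 11 were at Nfia, 6 at Nfib, 6 at Nfix and 1 at Nfic. For calls at either time or at both times, the share of all tested peaks was not computed. The 4 peaks called at both times were 1 higher peak at Nfib and 3 lower ones, 1 at Nfia and 2 at Nfix. These counts were small and rested on every library. Without any 1 of the 6 libraries of a comparison, 1 to 3 higher and 3 to 5 lower peaks were left at 24 h, and 1 to 2 higher and 3 to 7 lower at 72 h. Total-read scaling gave 2 higher (7.08% of all tested peaks) and 8 lower (3.44% of all) at 24 h. At 72 h it gave 1 (4.75% of all) and 14 (7.42% of all). Loess normalisation gave 3 (6.98% of all) and 10 (3.78% of all) at 24 h, and 0 (5.98% of all) and 11 (5.87% of all) at 72 h. Of the 14 peaks called at 24 h, 14 had the same sign at 72 h, and of the 14 called at 72 h, 11 had the same sign at 24 h. Over all 150 peaks, called or not, the sign was the same at both times for 96. The comparisons at 24 h and 72 h share no library. The share of all tested peaks with the same sign at both times was not computed, so this agreement is not shown to be particular to the NFI loci.

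**Figure D5:**
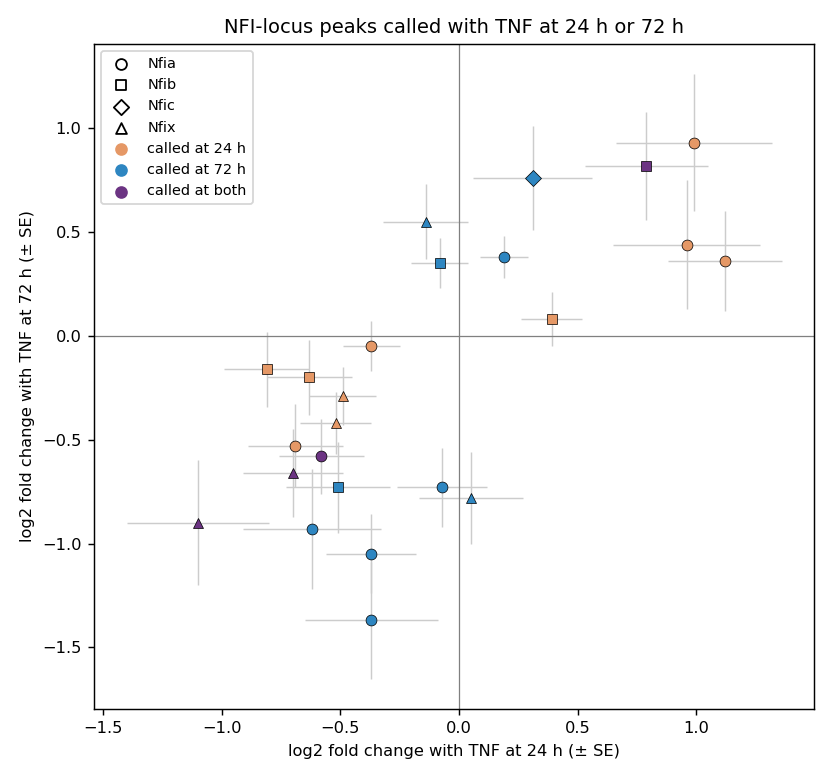
log2 fold change with TNF at 24 h (x axis) and at 72 h (y axis) of the 24 NFI-locus peaks called at either time, with SE bars, marker shape for the gene and colour for the time of the call. The points lie between -1.10 and 1.12 at 24 h and between -1.37 and 0.93 at 72 h, and 21 of 24 lie in the quadrants of equal sign.

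The Nfia peak at 97785530, highest at 72 h without TNF, was lower at 72 h with TNF. It had 94.8, 75.4 and 101 normalised reads at 72 h with TNF against 147, 227 and 195 without, without overlap, and a log2 fold change of -1.05 ± 0.19 (SE, limma adjusted p 0.00037) that was called under all alternatives and without each library. At 24 h the values were 76.0, 74.3 and 73.7 with TNF and 101, 98.8 and 89.9 without, a log2 fold change of -0.37 ± 0.19 (limma adjusted p 0.261). The opposite was found at chr4:97695369-97695869 in Nfia, which had 93.7, 83.0 and 134 with TNF at 24 h against 38.7, 48.7 and 51.7 without. Its log2 fold change was 1.12 ± 0.24 at 24 h (limma adjusted p 0.00204), called throughout the alternatives, and 0.36 ± 0.24 at 72 h (limma adjusted p 0.369). Lower at 24 h with TNF was the Nfia peak at chr4:97997054-97997554, with 122.0, 163.8 and 137.1 against 206.1, 249.3 and 224.2 without. The groups did not overlap, but the call (log2 fold change -0.69 ± 0.20, limma adjusted p 0.0243) was lost without 24 h replicate 2 or 3 or 24 h TNF replicate 1 or 3. In the Nfib flank, the peak at chr4:82511467-82511967 had 126, 120 and 87.2 with TNF at 24 h and 190, 217 and 175 without, a log2 fold change of -0.81 ± 0.18 (limma adjusted p 0.00246) that was also called throughout. This is one of the peaks by the Nfib end that fell during differentiation, and at 72 h its values with TNF (113.5, 112.3 and 123.6) and without (121, 130.4 and 140.2) overlapped. Some peaks described above were also called with TNF at 72 h. The log2 fold changes were 0.38 ± 0.10 at Nfia 98004193 (limma adjusted p 0.014) and 0.76 ± 0.25 at Nfic 81411458 (limma adjusted p 0.046). At Nfib 82263753 it was -0.73 ± 0.22 (limma adjusted p 0.026). Neither increase was called under every alternative, and the decrease was lost without 72 h replicate 1.

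At Nfix, the peak at 84788790 that rose with differentiation was lower with TNF. With TNF it had 195, 155 and 219 at 24 h, under the 254, 311 and 250 without TNF, and a log2 fold change of -0.52 ± 0.15 (SE, limma adjusted p 0.0193). At 72 h it had 344, 282 and 287 with TNF and 380, 411 and 426 without (log2 fold change -0.42 ± 0.15, limma adjusted p 0.0644). The call at 24 h was lost without 24 h replicate 2 or 24 h TNF replicate 2. Its neighbour at chr8:84782580-84783080 was called lower at both times, with log2 fold changes of -0.70 ± 0.21 and -0.66 ± 0.21. The Nfix peak at chr8:84758715-84759215, with 43.3, 30.2 and 50.9 with TNF at 24 h against 76.3, 78.2 and 115 without and 34.9, 34.0 and 45.6 against 86.2, 67.0 and 63.7 at 72 h, had log2 fold changes of -1.10 ± 0.30 (limma adjusted p 0.0161) and -0.90 ± 0.30 (limma adjusted p 0.0482). The call at 24 h was lost without 24 h replicate 3 or 24 h TNF replicate 2, and that at 72 h without any 1 library. In the Nfix gene body, the peak at chr8:84738352-84738852 had 102.8, 104.9 and 122.4 with TNF at 72 h against 166.0, 168.7 and 240.9 without. All TNF libraries lay lower, and the log2 fold change of -0.78 ± 0.22 (limma adjusted p 0.0174) was called under all alternatives but lost without 72 h replicate 3 or 72 h TNF replicate 1 or 2. The peak of the Nfix window called higher with TNF at 72 h, at chr8:84809422-84809922, had 167.2, 170.0 and 165.6 against 114.5, 107.7 and 119.8 without. Although the groups did not overlap, its call (log2 fold change 0.55 ± 0.18, limma adjusted p 0.0399) was lost without any 1 library of the comparison and with total-read scaling, loess normalisation, the replicate block and edgeR. At Nfib, the peak at chr4:82435674-82436174 was the only 1 of the 150 called higher with TNF at both times. Its values were 392, 363 and 374 with TNF at 24 h against 220, 248 and 190 without, and 567, 542 and 547 against 364, 301 and 277 at 72 h, with no overlap at either time. The log2 fold changes were 0.79 ± 0.26 (limma adjusted p 0.0494) and 0.82 ± 0.26 (limma adjusted p 0.036), and each call was lost without any 1 library of its comparison. The call at 24 h was also lost with total-read scaling, loess normalisation, no filter, either replicate block, edgeR and DESeq2, and that at 72 h with total-read scaling, loess normalisation, the block by library-name number and DESeq2. In NSPs this peak had 303, 950 and 1140, with the low value in replicate 1, and against NSPs it was lower at 24 h without TNF, by a log2 fold change of -1.66 ± 0.26, or -2.25 without that replicate.

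Whether the TNF effect differed between 72 h and 24 h was tested as an interaction. In limma, 0 of the 150 NFI peaks were called with a higher TNF effect at 72 h (0% of all tested peaks were) and 0 with a lower one (0.00112% of all). At an unadjusted limma p under 0.05 there were 13 peaks, 8 with a higher and 5 with a lower TNF effect at 72 h. Of all 88919 tested peaks, 3191 and 3484 were under it, a share near that of the NFI peaks. By edgeR and DESeq2 the adjusted counts were also 0, with 13 and 14 peaks under an unadjusted 0.05. The peaks called at a single time are thus not shown to differ between the times.

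Genes known to act with NFI in gliogenesis were read through their closest gene-end peak, for 14 of 15 listed genes (Runx2 had none), of which Gfap, Slc1a3, Aldh1l1 and S100b were also among the astrocyte markers. At 24 h against NSPs 1 of the 14 was higher and 10 lower, at 72 h 1 and 9, and at 1 week 4 and 5. Without NSP replicate 1 these counts were 1 and 8, 1 and 8, and 5 and 6. The shares of all tested peaks called higher and lower were 24.2% and 23%, 28.3% and 30.9%, and 33.7% and 33.6%. Those peaks are not only at gene ends, and the share among gene-end peaks was not computed. With TNF 0 of the 14 were called at 24 h and 2 lower at 72 h, under limma, edgeR and DESeq2 alike. From 72 h to 1 week 6 were higher (22.5% of all tested peaks) and 3 lower (16.2% of all). These turned to 2 and 4 with total-read scaling and to 1 and 4 with loess normalisation. Gfap, the astrocytic intermediate filament gene and a target of NFI, was the gene that was higher at each time. Its peak at chr11:102897110-102897610 had 186, 75.8 and 61.1 normalised reads in NSPs, 511, 500 and 456 at 24 h, 542, 493 and 552 at 72 h and 248, 249, 255 and 280 at 1 week. Every later library lay above every NSP library, of which replicate 1 was the highest, and the 1 week libraries lay under those of 24 h and 72 h. The log2 fold change was 2.35 ± 0.22 (SE) at 24 h (limma adjusted p 6.4e-10) and 2.82 ± 0.14 without NSP replicate 1. At 72 h with TNF the Gfap peak had 243, 257 and 239, without overlap with the untreated libraries, and a log2 fold change of -1.10 ± 0.22 (limma adjusted p 0.0011). S100b, a calcium-binding protein of glia, was the other gene of the list lower with TNF at 72 h (log2 fold change -0.54, limma adjusted p 0.015). Hes5, the Notch effector, fell from 1980 ± 208 normalised reads (SD, n = 3) in NSPs to 198 ± 22.6 (n = 3) at 72 h and 93.0 ± 20.0 (n = 4) at 1 week. Sox9, the partner of Nfia, was lower at 24 h (log2 fold change -0.51, limma adjusted p 0.0046) and was not called at 72 h or 1 week. Without NSP replicate 1 the decrease at 24 h was not called (-0.25, limma adjusted p 0.064), and Sox9 was higher at 1 week (0.41, limma adjusted p 0.00086). Stat3, Slc1a3 and Zbtb20 were, beside Gfap, the genes higher at 1 week, by log2 fold changes of 0.41, 0.39 and 0.45. Fabp7, a radial glial gene bound by NFI, was lower at all 3 times (log2 fold changes -0.68, -0.95 and -0.77). The median log2 change of the 14 gene-end peaks was -0.43 at 24 h, against -0.07 over all tested peaks, which are not only at gene ends.

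The gene-end peaks most like those at the NFI starts were sought by the Pearson correlation of log2 group means over the 6 groups, among 5876 peaks of protein-coding genes. Only peaks at or above the median level whose group means spanned a set minimum range were candidates. As the points share libraries, these are descriptions. For the Nfib end the closest were Cbx6 and Npcd, which share a peak (r = 0.998), and Taf4 (r = 0.996). For Nfix they were Espl1 (r = 0.948) and Gm52006 and Zfp36l1, which share a peak (r = 0.939). For Nfic they were Rpl38 (r = 0.977), Asb8 (r = 0.967) and 1700007K13Rik (r = 0.945). For the Nfia start the closest was Atp5g2 (r = 0.799). This start changed little, and peaks that changed little were not candidates, so the lower correlation says nothing about how many peaks resemble it.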

How the data were processed

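The ATAC-seq table holds 90154 peaks by 19 libraries. Per the study's methods and the submitters' processing notes, reads were checked and trimmed with FastQC and Trim Galore, aligned with Bowtie2 to mm10, handled with SAMtools and used to call peaks with MACS2. Versions, duplicate handling, transposase shift and table scaling are not given in the sources used here. The deposited signal values are whole read counts divided by 1 size factor per library, which returned whole reads within a tolerance of 1e-06. Because they are scaled, the main test was limma-trend 3.58.1 (R 4.3.3) on log2(value + 1), two-sided, over 88919 peaks passing filterByExpr (minimum count 10; 1235 peaks left out), with Benjamini-Hochberg adjustment. The script was tested on simulated data. Alternatives were other scalings, filters, pseudocounts, sample sets and replicate blocks, edgeR 4.0.16 and DESeq2 1.42.0 on whole reads, and leaving out each library. Gene positions were matched to GRCm38.p6, the same assembly as mm10, and peak coordinates are printed as deposited. Named peaks were, per gene, the one closest to a start or gene end, the one with the highest mean, and those with the smallest p among calls in each direction for 6 comparisons; the peaks at 97647546, 82384324, 82386163 and 84782580 were chosen after their values were seen. Of the peaks that the rule names, 1 in the Nfix window is not reported here. Members, partner genes and cell type marker lists were chosen with earlier results of these data known. Precision is limited by 3 or 4 libraries a group, and read counts in peaks carry counting error besides.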

Additional observations from a re-analysis of the deposited data

Results flagged for a closer look

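At the Nfix start peak (chr8:84779785-84780285), 1 week replicate 4 had 332 normalised reads, while the other 1 week libraries had 257, 256 and 249. Its gap to the nearest library, divided by the range of the group, was above Dixon's 95% critical value for 4 samples. Chance marks about 1 in 20 such groups, and this was the only library marked among the named peaks and the mean levels of the 4 genes at 1 week.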

How the results depend on the processing

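Total-read scaling gave 33 peaks lower at 24 h (13.9% of all tested peaks) and 41 at 24 h with TNF (15.7% of all) against NSPs. For TNF at 24 h, the higher calls were 2 with total-read scaling and 3 with loess normalisation, no filter, the replicate block and the replicate block by library-name number. For TNF at 72 h, they were 1 with total-read scaling, 0 with loess normalisation, 8 with only the groups compared, 2 with either replicate block, 2 with edgeR and 3 with DESeq2, and the lower calls were 14, 17 and 4 with total-read scaling, only the groups compared and the block by library-name number. From 72 h to 1 week there were 14 higher with total-read scaling (8.96% of all tested peaks) and 18 with loess normalisation (13% of all). There were 44 lower with total-read scaling (33.8% of all) and 29 with edgeR (20% of all). The cause was not tested. Uncalled changes that turned in sign were those of the Nfia start at 24 h (0.13) and the Nfix start at 72 h (0.073) with total-read scaling, and of the Nfic start peak from 72 h to 1 week (0.06 with loess normalisation and 0.06 with the replicate block). Without 1 library, TNF at 24 h gave 1 to 3 higher and 3 to 5 lower peaks, and TNF at 72 h 1 to 2 and 3 to 7. The sign of some small changes turned without 1 library. For the Nfia start peak the lowest and highest values were -0.15 and 0.047 (24 h), -0.020 and 0.22 (72 h with TNF) and -0.15 and 0.057 (1 week) against NSPs. For the Nfib end they were -0.25 and 0.022 (TNF at 24 h). For the Nfic start peak they were -0.063 and 0.48 (24 h) and -0.11 and 0.43 (24 h with TNF) against NSPs, -0.23 and 0.12 (TNF at 24 h) and -0.12 and 0.061 (1 week against 72 h). For the Nfix start peak they were -0.42 and 0.049 (72 h) and -0.42 and 0.047 (1 week) against NSPs, -0.15 and 0.060 (TNF at 72 h) and -0.10 and 0.039 (1 week against 72 h). Apart from single libraries left out, 634 of the fold changes of named peaks under an alternative kept direction and side of the threshold, 36 lost the call, 1 gained it and 4 turned in sign. Same-numbered libraries deviated together little (correlations from -0.031 to 0.106). Differently numbered libraries were not compared, so whether the numbers pair the libraries is not shown. Either replicate block moved, of the counts over all 150 peaks, only TNF counts by over 1.5 times. Among the counts per gene from 72 h to 1 week, the decreases at Nfix went from 5 to 3 with the replicate block. With only the groups compared, 147 of the 150 peaks were tested from 72 h to 1 week.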
